A study of Mus musculus with 6 samples.

Results

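The genes described are 9 members of the acute-phase group, *Hp*, *Orm1*, *Orm2*, *Orm3*, *Lcn2*, *Serpina3n*, *Cp*, *Steap4* and *Hpx*, of 24016 mouse genes in the table. They were taken by name, through the Ensembl identifiers of the table, and all 9 had a value in every library. The cells were MC3T3-E1 subclone 4, a wild-type preosteoblast line from mouse calvaria that is 1 clone. All cultures were differentiated over 6 days in β-glycerophosphate (10 mM) and ascorbic acid (50 μg/ml), and they then had vehicle (n = 3) or 100 nM corticosterone (n = 3) for 24 h. Calcitriol at 10 nM is listed with the corticosterone treatment, and the labels do not say whether the vehicle cultures had it too. If they did not, the effects of both hormones cannot be told apart in any comparison given here. Passages are given as 4 to 10 in one label and as 6 to 12 in another. The comparison asks how the main glucocorticoid of mice changed the transcripts of these genes in differentiated osteoblasts.

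Acute-phase proteins are plasma proteins that rise or fall in inflammation and are made mainly by the liver. Interleukin-6 acts on their genes through STAT3, interleukin-1 through NF-kB and C/EBP factors, and glucocorticoids act together with these cytokines through the glucocorticoid receptor. Haptoglobin (*Hp*) binds free haemoglobin, and hemopexin (*Hpx*) binds free haem. The orosomucoids (*Orm1*, *Orm2* and *Orm3*) are small plasma glycoproteins of the lipocalin fold that carry drugs and steroids. Lipocalin-2 (*Lcn2*) binds iron-carrying siderophores and is also made by bone cells. *Serpina3n* encodes a secreted serine protease inhibitor, *Cp* encodes ceruloplasmin, a copper-bearing ferroxidase, and *Steap4* encodes a metalloreductase of iron and copper.

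The library depth and the cell type were checked first. The vehicle libraries held 19076586 to 25638645 reads on genes and the corticosterone libraries, all shallower, 16020401 to 18992332. Each value is a read count over the size factor of its library, a normalized count. The floor was set at 3 reads, worth 2.32 to 3.84 normalized counts. Like the intervals of read ratios and of read shares below, it covers counting error only. The intervals of log2 fold changes are from limma and rest on the spread between libraries. All 10 osteoblast markers had values, and collagen *Col1a1* reached a mean normalized count of 709237 with vehicle and 638757 with corticosterone. Of these 10 markers, 5 were lower and 0 were higher past the threshold described below, against 1.40% and 1.38% of all genes. The 5 were *Runx2*, *Sp7*, *Ibsp*, *Bglap* and *Pth1r*, with log2 fold changes of -1.16, -1.34, -1.20, -1.87 and -1.30. Whatever the size, 9 of the 10 were lower and 1 was higher at a limma adjusted p under 0.05, against 16.7% of all genes in either direction. In bulk RNA, fewer cells of a type and less RNA per cell cannot be told apart.

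The orosomucoid genes lie side by side on chromosome 4 and are so alike that a read may match more than 1 of them. Their coding sequences in GENCODE M21 are 621 bases long in *Orm1* and *Orm2* and 618 bases long in *Orm3*, without the stop codon. The identity was 89.9% between *Orm1* and *Orm2*, 88.4% between *Orm2* and *Orm3* and 86.4% between *Orm1* and *Orm3*. The following stretches of 120 coding bases show what separates the genes. They start at coding base 141 of *Orm1* and *Orm2* and at the aligned base 138 of *Orm3*, and the capitals mark the 37 positions at which the genes are not all alike.
Orm1: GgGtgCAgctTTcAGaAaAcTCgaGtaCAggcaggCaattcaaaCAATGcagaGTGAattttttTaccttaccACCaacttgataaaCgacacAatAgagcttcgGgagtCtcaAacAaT
Orm2: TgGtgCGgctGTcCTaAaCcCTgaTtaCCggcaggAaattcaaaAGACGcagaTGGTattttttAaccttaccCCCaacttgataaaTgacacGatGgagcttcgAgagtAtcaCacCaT
Orm3: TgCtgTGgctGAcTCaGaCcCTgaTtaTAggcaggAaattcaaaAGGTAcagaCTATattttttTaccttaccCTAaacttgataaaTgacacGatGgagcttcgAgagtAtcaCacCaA

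The share of a gene's 31-base stretches (31-mers) shared with other genes' transcripts was 27.5% for *Orm1*, 34.1% for *Orm2* and 9.42% for *Orm3*. It was 21.6% for *Serpina3n*, whose partners are other genes of the *Serpina3* cluster. The share was 0.901% for *Cp*, 0.254% for *Hp* and 0 for *Lcn2*, *Steap4* and *Hpx*. How reads that fit several genes were counted is not given in the sources used here, so the split among the orosomucoid genes, and the value of *Serpina3n*, are uncertain to that extent.

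Promoter windows of RefSeq (GRCm38.p6), from 250 bases before to 50 bases after the annotated start, were matched for 7 of the 9 members. The members matched were *Orm2*, *Orm3*, *Lcn2*, *Serpina3n*, *Cp*, *Steap4* and *Hpx*, with 8 windows in all because *Cp* has more than 1 start. The 250 bases upstream of the start are shown for *Orm2* and *Orm3*, which both rose, and for *Serpina3n*, which rose less. Capitals mark matches to the motifs listed after them.
Orm2, chr4:63362199-63362448, plus strand: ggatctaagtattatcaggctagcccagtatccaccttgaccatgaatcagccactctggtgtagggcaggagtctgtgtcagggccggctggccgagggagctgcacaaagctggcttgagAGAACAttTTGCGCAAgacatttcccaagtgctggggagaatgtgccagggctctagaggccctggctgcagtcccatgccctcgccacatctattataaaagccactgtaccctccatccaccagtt
Orm3, chr4:63355908-63356157, plus strand: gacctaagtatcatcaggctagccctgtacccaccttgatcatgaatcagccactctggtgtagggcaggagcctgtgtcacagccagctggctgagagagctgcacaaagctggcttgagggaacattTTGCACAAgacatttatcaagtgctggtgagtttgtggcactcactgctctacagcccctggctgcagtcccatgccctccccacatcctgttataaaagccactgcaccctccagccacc
Serpina3n, chr12:104406458-104406707, plus strand: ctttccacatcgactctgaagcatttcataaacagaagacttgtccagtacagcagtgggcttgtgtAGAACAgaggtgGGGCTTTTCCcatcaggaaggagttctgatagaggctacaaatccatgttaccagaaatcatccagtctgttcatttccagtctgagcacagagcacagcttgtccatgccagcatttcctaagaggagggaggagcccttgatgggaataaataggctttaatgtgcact

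The upstream stretches of *Orm2* and *Orm3* matched at 218 of 245 aligned bases, or 89.0%. Both hold a C/EBP motif, TTGCNNAA, 120 and 121 bases before the start. In *Orm2* a motif AGAACA, the core of a glucocorticoid receptor site, begins 128 bases before the start. Upstream of *Serpina3n* the same AGAACA begins 183 bases before the start, followed by an NF-kB motif (GGG, any 2 bases, then TTTCC) at 171 bases. These matches are descriptions of letters, not of bound sites.

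Across the 8 member windows, and on both strands, TTGCNNAA was found in 6, against 10.8% of 32851 RefSeq windows of the same length. AGAACA was found in 3 of 8 windows, against 19.0% of all. These were the windows of *Orm2*, of *Serpina3n* and of the first start of *Cp*, a gene with a lower mean with corticosterone. The longer glucocorticoid receptor site (AGAACA, any 3 bases, then TGTTCT), which contains the shorter motif, was in 0 of 8 and in 0.00913% of all. The STAT motif TTCNNNGAA was in 1 of 8, against 8.30%, and the NF-kB motif in 2 of 8, against 1.63%. The windows with the NF-kB motif were those of *Serpina3n* and *Steap4*. The STAT match was upstream of *Steap4*, a gene that did not pass the test, and the windows with the C/EBP motif were those of *Hpx*, *Steap4*, *Orm2*, *Orm3*, *Lcn2* and the second start of *Cp*. In *Lcn2* and *Cp* the match lies before the RefSeq start but inside GENCODE exons of the same gene, of transcript *Lcn2-206* and of 5 *Cp* transcripts.

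With corticosterone 6 of the 9 members, *Hp*, *Orm1*, *Orm2*, *Orm3*, *Lcn2* and *Serpina3n*, rose past the threshold, which asks for a limma adjusted p under 0.05 together with a change of more than 1 on the log2 scale. By limma, edgeR and DESeq2 alike 0 members were lower past it, 2 were lower at an unadjusted limma p under 0.05, and *Cp*, *Steap4* and *Hpx* did not pass. Over all 24016 genes 331 were higher (1.38%) and 337 were lower (1.40%). The share of all genes at an unadjusted p under 0.05 was not counted, here or for the lists below. Counts at that cutoff give directions only. Whatever the size of the change, 7 of 9 members had an adjusted p under 0.05, against 16.7% of all genes. The 3 corticosterone libraries lay wholly above or wholly below the 3 vehicle libraries in 7 of 9 members, against 29.6% of all genes and 43.8% of those with a mean normalized count of at least 10, which 8 of the members reach. *Orm1*, *Orm2*, *Orm3* and *Lcn2*, with vehicle means of 5.46, 1.94, 1.54 and 0, reach it only through their corticosterone values. The share of 43.8% is thus not matched to them in level. The median log2 fold change of the 9 members was 4.21, or 2.81 with *Lcn2*, which had no vehicle reads, at the lower bound of its rise, and that of all genes was -0.01.

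**Figure D1:**
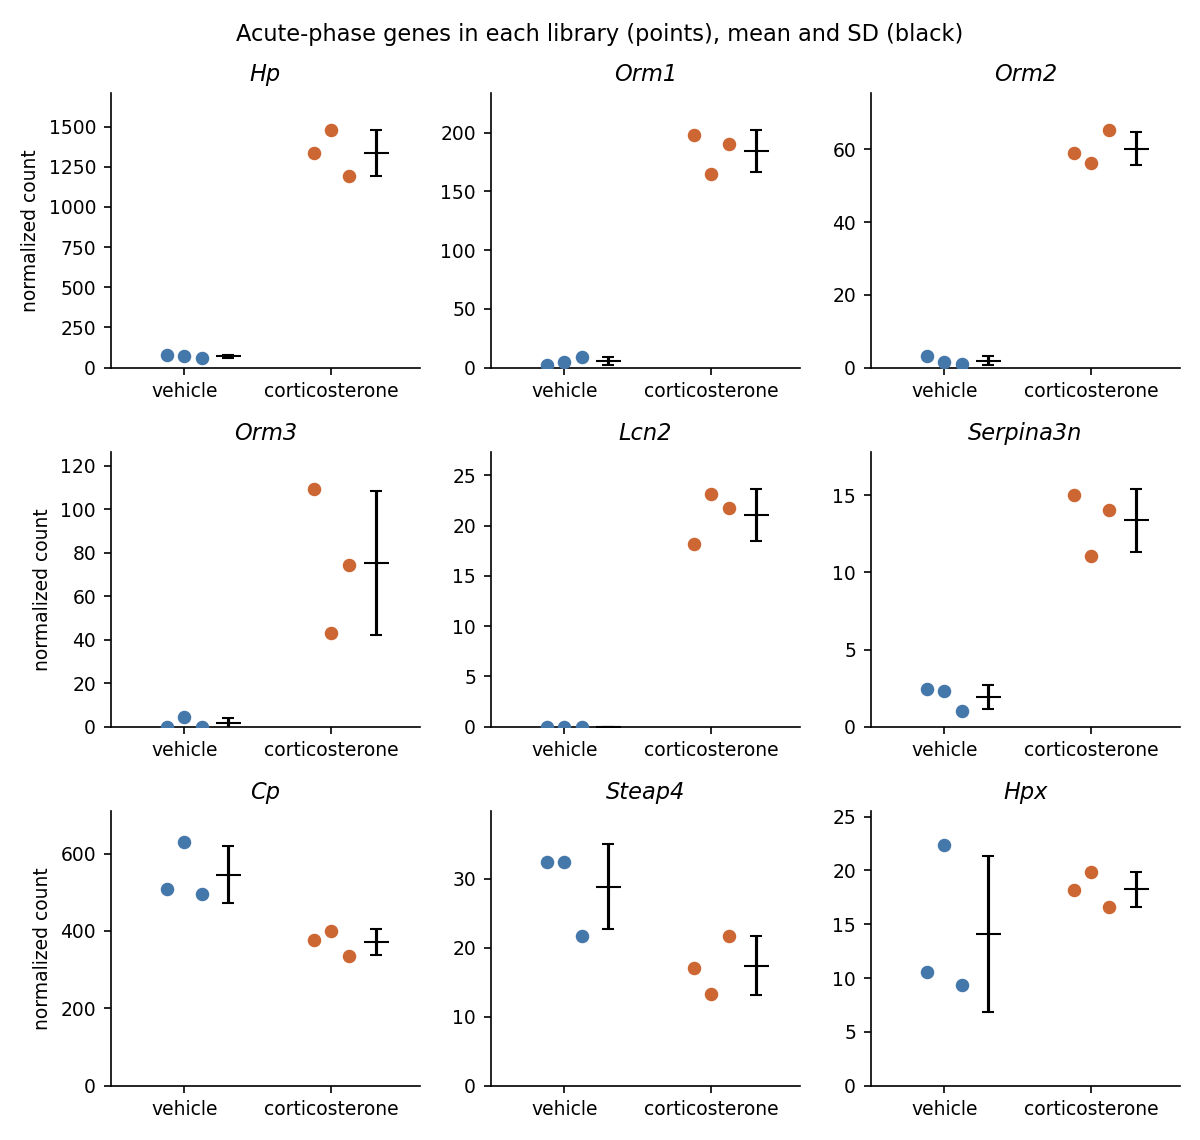
Normalized counts (vertical axes, linear and each with its own scale from 0) of the 9 acute-phase genes in the 3 vehicle (blue) and 3 corticosterone (orange) libraries, with the mean and SD in black. The groups are wide apart in *Hp*, *Orm1*, *Orm2*, *Orm3*, *Lcn2* and *Serpina3n*, *Cp* is lower with corticosterone, and the groups overlap in *Steap4* and *Hpx*.

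Of the haemoglobin and haem binders, *Hp* rose and *Hpx* did not pass the test. *Hp* (ENSMUSG00000031722, chr8:109575128-109579172 of GRCm38, minus strand) had normalized counts of 79.5, 75.6 and 61.0 with vehicle and of 1333, 1480.0 and 1191 with corticosterone. Every corticosterone library was far above every vehicle library, and the spread within each treatment was small beside the gap. The means were 72.0 ± 9.73 and 1335 ± 144 (SD, n = 3 each), an 18.5-fold rise. On the scale of log2(normalized count + 0.1) the change was 4.21 (standard error, SE, 0.11, limma adjusted p = 1.25e-13). At least 59 reads stood behind each value of *Hp*.

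*Hpx* (ENSMUSG00000030895, chr7:105591613-105600137, minus strand) had 10.5, 22.4 and 9.31 with vehicle and 18.2, 19.9 and 16.6 with corticosterone. The second vehicle library was the highest of all 6, so that the groups overlapped. The log2 fold change was 0.48 (95% interval -0.42 to 1.38, limma adjusted p = 0.55), and the two-sided exact permutation test gave p = 0.4. These values rest on 9 to 29 reads per library.

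All orosomucoid genes rose. *Orm1* (ENSMUSG00000039196, chr4:63344560-63348163, plus strand) had normalized counts of 2.43, 4.63 and 9.31 with vehicle and 198, 165 and 191 with corticosterone. The vehicle values rest on 3, 6 and 9 reads, near the floor, and the corticosterone values on 149 to 185 reads. The log2 fold change was 5.25 (SE 0.38, limma adjusted p = 3.68e-08). The ratio of summed reads, scaled by the size factors, was 35.8, with an exact 95% counting interval of 22.4 to 60.9.

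*Orm2* (ENSMUSG00000061540, chr4:63362449-63365878, plus strand) had 3.24, 1.54 and 1.03 with vehicle, from 4, 2 and 1 reads. With corticosterone it had 58.9, 56.3 and 65.2, from 55, 51 and 51 reads. The 3 corticosterone libraries were close together, with a mean of 60.2 ± 4.59 (SD, n = 3) against 1.94 ± 1.16 (SD, n = 3). The log2 fold change was 5.03 (SE 0.51, limma adjusted p = 2.02e-06), and the ratio of reads 29.9 (95% counting interval 14.2 to 75.6).

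*Orm3* (ENSMUSG00000028359, chr4:63356162-63359511, plus strand) was the most uneven of the family. With vehicle it was at 0 in the first and last libraries and at 4.63, from 6 reads, in the second. With corticosterone it had 109, 43.1 and 74.2, from 102, 39 and 58 reads. The groups did not overlap, but the first corticosterone library was far above the second. The log2 fold change was 7.61 (SE 1.16, limma adjusted p = 0.000152), and the ratio of reads was 44.2 (95% counting interval 20.0 to 122). Without the second vehicle library, which held all its vehicle reads, the log2 fold change was 9.46, and without the first or the last it was 6.68. With no trend in the prior variance, its limma adjusted p was 0.0858.

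The sum of the 3 genes does not depend on how counted reads were split among them. If the counting left shared reads out, which is not known, the sum lacks them. The sum was 5.68, 10.8 and 10.3 with vehicle and 366, 264 and 330.1 with corticosterone. The means of 8.94 ± 2.84 and 320.1 ± 51.8 (SD, n = 3 each) differed 35.8-fold, or by 5.19 on the log2 scale (SE 0.25, limma adjusted p = 2.99e-10). Its standard error was below that of each of the 3 genes.

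The shares below are of counted reads and depend on how shared reads were handled. The division of the family's counted reads was followed with corticosterone, where 239 to 342 reads per library fell on it. *Orm1* took 54.1%, 62.3% and 57.8% of them, *Orm2* 16.1%, 21.3% and 19.8%, and *Orm3* 29.8%, 16.3% and 22.5%. *Orm1* had the largest share in each corticosterone library, while the order of *Orm2* and *Orm3* was not the same in all of them. The Wilson 95% interval of the share of *Orm3* was 25.2% to 34.9% in the first library and 12.2% to 21.5% in the second, so these shares differ by more than counting error. In the vehicle libraries together only 31 reads fell on the family, of which *Orm1* took 58.1% (Wilson 95% interval 40.8% to 73.6%), against 57.6% of 839 reads with corticosterone. The single vehicle libraries, with 7, 14 and 10 reads, were unlike. *Orm1* took 42.9%, 42.9% and 90.0% of them, and *Orm2* 57.1%, 14.3% and 10.0%, a spread that the summed share hides. Whether the division differed between the treatments was not tested.

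**Figure D2:**
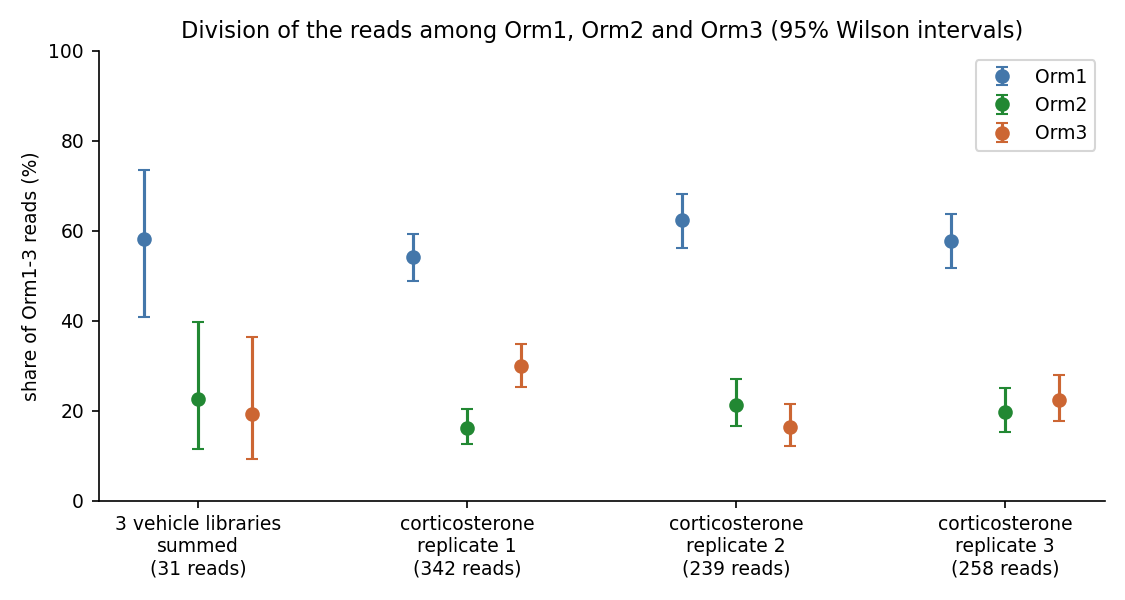
Share (vertical axis, percent) of the reads of *Orm1*, *Orm2* and *Orm3* that each gene took in the 3 vehicle libraries summed and in each corticosterone library, with Wilson 95% intervals that cover counting error only. *Orm1* holds 54.1% to 62.3% in the corticosterone libraries, and the intervals of the 31 vehicle reads are wide.

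*Lcn2* (ENSMUSG00000026822, chr2:32384633-32388252, minus strand) had no reads in any vehicle library. With corticosterone it had normalized counts of 18.2, 23.2 and 21.7, from 17, 21 and 17 reads, a mean of 21.0 ± 2.57 (SD, n = 3). These 3 values were close together and all above the floor of 3 reads. Against that floor in each vehicle library, *Lcn2* was at least 6.78-fold higher. The fitted log2 fold change of 7.72 (SE 1.04, limma adjusted p = 4.33e-05) depends on the pseudocount, and was 4.46 with a pseudocount of 1 and 11.0 with 0.01. Of the genes encoding other lipocalins, 6 of 14 had values. Of these, edgeR and DESeq2 gave an adjusted p for 2, with 0 past the threshold. By limma 0 of the 6 were past it in either direction, while 1 was lower at an unadjusted p under 0.05. The apolipoprotein gene *Apod*, the most abundant of these, had a log2 fold change of -0.40 (limma adjusted p = 0.0089), short of the fold threshold. Its adjusted p was over 0.05, at up to 0.078, with 3 of the 6 libraries left out in turn. The log2 fold changes of the next 3 were 0.05 for *C8g*, -0.59 for *Lcn8* and 1.16 for *Apom*, with adjusted p of 0.94, 0.70 and 0.68 in limma.

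*Serpina3n* (ENSMUSG00000021091, chr12:104406729-104414329, plus strand) rose but was low in both groups. It had 2.43, 2.32 and 1.03 with vehicle, from 3, 3 and 1 reads, and 15.0, 11.0 and 14.1 with corticosterone, from 14, 10 and 11 reads. The groups did not overlap, while the vehicle values were at or below the floor. The log2 fold change was 2.81 (SE 0.68, limma adjusted p = 0.0081), and the ratio of reads 6.67 (95% counting interval 2.92 to 17.8). *Serpina3g*, with which it shares the most 31-mers (5.90%), had 20.5 ± 6.62 and 19.1 ± 9.78 (SD, n = 3 each), and the log2 fold change was -0.18 (limma adjusted p = 0.86). *Serpina3g* is named after its values were seen.

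The metal enzymes *Cp* and *Steap4* had lower means with corticosterone, and neither passed the threshold. *Cp* (ENSMUSG00000003617, chr3:19957054-20009145, plus strand) had normalized counts of 509, 630 and 496 with vehicle and 378, 401 and 336 with corticosterone. All corticosterone libraries were below all vehicle libraries. The means of 545 ± 73.6 and 372 ± 32.7 (SD, n = 3 each) give a change of -31.8%, and the log2 fold change was -0.55 (95% interval -0.75 to -0.35, limma adjusted p = 0.000465). Its adjusted p was under 0.05 with each library left out in turn, at up to 0.0256, and 0.0951 without a trend in the prior variance. *Cp* overlaps *Hps3*, a gene of the other strand that had 301 ± 20.8 and 328 ± 29.5 (SD, n = 3 each). Whether the counting used the strand is not given in the sources used here, and without it reads of the overlap cannot be told apart.

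*Steap4* (ENSMUSG00000012428, chr5:7960457-7982213, plus strand) had 32.4, 32.4 and 21.7 with vehicle and 17.1, 13.3 and 21.7 with corticosterone. The last library of each treatment had nearly the same value, so that the groups met. The log2 fold change was -0.73 (95% interval -1.45 to -0.02, limma adjusted p = 0.18), and the two-sided exact permutation test gave p = 0.2. For the 7 members whose groups were apart, the same exact test gave p = 0.1, the smallest that 3 libraries against 3 allow.

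**Figure D3:**
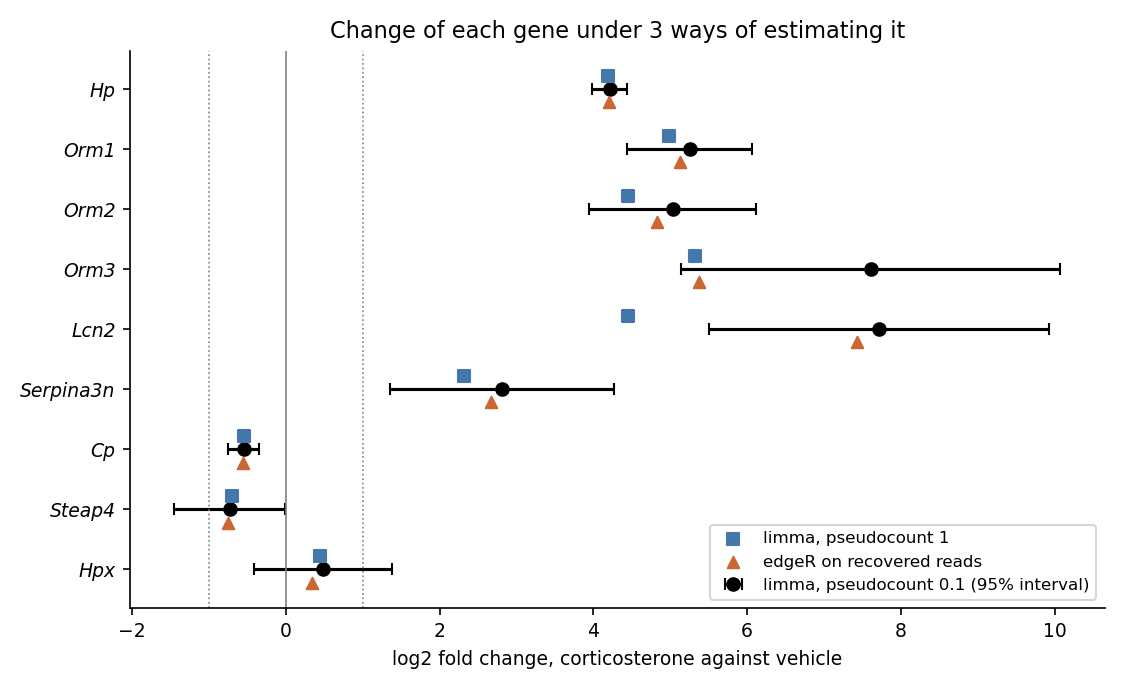
Log2 fold change (horizontal axis, corticosterone against vehicle) of each acute-phase gene from limma with a pseudocount of 0.1 (black, with 95% intervals), limma with a pseudocount of 1 (blue squares) and edgeR on recovered reads (orange triangles), with dotted lines at the fold threshold. The 3 estimates nearly coincide in *Hp* and *Cp* and are widest apart in *Lcn2* and *Orm3*, which had vehicle libraries without reads.

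The order of the members was compared per length, as RPKM, the counted reads scaled to the library total and to the length of the longest protein-coding transcript. With vehicle, *Cp* was the highest at 6.05 ± 0.806, followed by *Hp* at 2.71 ± 0.365 (SD, n = 3 each), and these did not overlap. *Hpx* at 0.475 ± 0.243, *Steap4* at 0.463 ± 0.0988 and *Orm1* at 0.357 ± 0.230 (SD, n = 3 each) overlapped. *Orm2* (0.127), *Orm3* (0.101) and *Serpina3n* (0.0473) were near the floor, and *Lcn2* was at 0.

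With corticosterone *Hp* led at 48.8 ± 5.68 RPKM, followed by *Orm1* at 11.7 ± 1.05 (SD, n = 3 each). *Orm3* at 4.80 ± 2.09, *Cp* at 4.01 ± 0.384 and *Orm2* at 3.82 ± 0.261 (SD, n = 3 each) overlapped and could not be ordered. *Lcn2* followed at 1.13 ± 0.141, then *Hpx* at 0.599 ± 0.0582 (SD, n = 3 each). The last were *Serpina3n* at 0.318 ± 0.0475 and *Steap4* at 0.271 ± 0.0641 RPKM (SD, n = 3 each), which overlapped. *Serpina3n*, which passed the threshold, was thus at a lower level per length with corticosterone than *Hpx*, which did not.

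With the union of all exons as the length, a choice made after the data were seen, the level of *Cp* was 2.88 with vehicle and 1.91 with corticosterone. That of *Hp* was 2.27 and 40.9, and that of *Lcn2* with corticosterone was 0.395. *Cp* was still first and *Hp* next with vehicle. With corticosterone *Cp* came below *Orm2*, and *Lcn2* below *Hpx*.

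The 9 members together took 34.0 ± 4.54 CPM, the reads scaled to the library total, with vehicle and 103 ± 7.99 CPM with corticosterone (SD, n = 3 each). With vehicle, 81.3% ± 1.59 of these were reads of *Cp* and 10.8% ± 1.42 reads of *Hp* (SD, n = 3 each). With corticosterone 17.7% ± 0.364 were reads of *Cp* and 63.6% ± 2.90 reads of *Hp* (SD, n = 3 each). In reads, which do not allow for transcript length, the group passed from mostly *Cp* to mostly *Hp*.

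The nearest genes with values on each side of the members were read for comparison, and genes without values may lie nearer. None of the neighbours outside the acute-phase genes was past the threshold. On the orosomucoid side, *Col27a1*, a collagen gene below *Orm1*, had a log2 fold change of 0.68 (limma adjusted p = 6.53e-09), and *Akna*, above *Orm2*, had 0.42 (limma adjusted p = 0.0023). *Gm11212*, between *Orm1* and *Orm3*, had at most 2 reads in a library. Beside *Hp*, *Txnl4b* had -0.22 and *Dhodh*, of pyrimidine synthesis, had 0.09 (limma adjusted p = 0.25 and 0.51).

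Beside *Lcn2*, *1110008P14Rik* and the prostaglandin synthase gene *Ptges2* had log2 fold changes of 0.13 and 0.16 (limma adjusted p = 0.44 and 0.18). Next to *Hpx*, *Apbb1* had -0.33 (limma adjusted p = 0.0014) and *Trim3* -0.12 (0.30). The neighbours of *Cp* were *4632415L05Rik* with -0.17 and *Hltf* with -0.03. Those of *Steap4* were *Tubb4b-ps1*, 779756 bases away, with -0.40 and *Gm15731*, 55080 bases away, with -0.21. Each of these 4 had a limma adjusted p of at least 0.18. *Serpina3n* lies between *Gsc*, with 0.06 (limma adjusted p = 0.91), and *Serpina3m*, a gene of its own cluster.

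Of 34 other acute-phase genes, 16 had values, and by limma 4 of these rose and 0 fell past the threshold, against 1.38% and 1.40% of all genes. The median log2 fold change of the 6 with a mean normalized count of at least 10 was 0.78. Of these, *Lbp* reaches that mean only through its corticosterone values. *Agt*, which encodes angiotensinogen, rose from 80.2 ± 10.8 to 237 ± 7.34 (SD, n = 3 each), by 1.57 on the log2 scale (limma adjusted p = 1.14e-07). *Lbp*, the lipopolysaccharide-binding protein, rose from 4.76 ± 4.85 to 40.6 ± 10.2 (SD, n = 3 each), with a log2 fold change of 3.50 (limma adjusted p = 0.000455). Without vehicle replicate 3 that of *Lbp* was 4.29, and its adjusted p without a trend in the prior variance was 0.0752.

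*Itih3*, of the inter-alpha-trypsin inhibitor family, had 22.5 ± 7.20 and 49.3 ± 10.8 (SD, n = 3 each) and rose by 1.16 on the log2 scale (limma adjusted p = 0.0135). It was no longer past the threshold without vehicle replicate 3, corticosterone replicate 1 or corticosterone replicate 3, nor without a trend in the prior variance, where its adjusted p was 0.14. *Serpina3m* had no vehicle reads and at most 4 reads with corticosterone (limma adjusted p = 0.0317). It lost the call with each of the 6 libraries left out, at an adjusted p of up to 0.12. The low-count filter of edgeR left *Serpina3m* out, DESeq2 gave it no adjusted p, and edgeR without that filter gave an adjusted p of 0.0721. The other 3 were called by edgeR and DESeq2 too. Named after their values were seen, complement *C3* and vitronectin (*Vtn*) had the highest levels of the list, with log2 fold changes of 0.41 and -0.87 (limma adjusted p = 5.57e-06 and 1.12e-05). Neither passed the fold threshold, and *Vtn* did so, at -1.01, without vehicle replicate 1.

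Of 7 genes of negative acute-phase proteins, which fall in the liver during inflammation, 2 had values. *Apoa1*, the main apolipoprotein of high-density lipoprotein, rose from 15.3 ± 2.87 to 67.7 ± 14.1 (SD, n = 3 each). Its log2 fold change was 2.13 (limma adjusted p = 2.94e-05). The direction of *Apoa1* is not the one that the name of the list gives for inflammation.

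**Figure D4:**
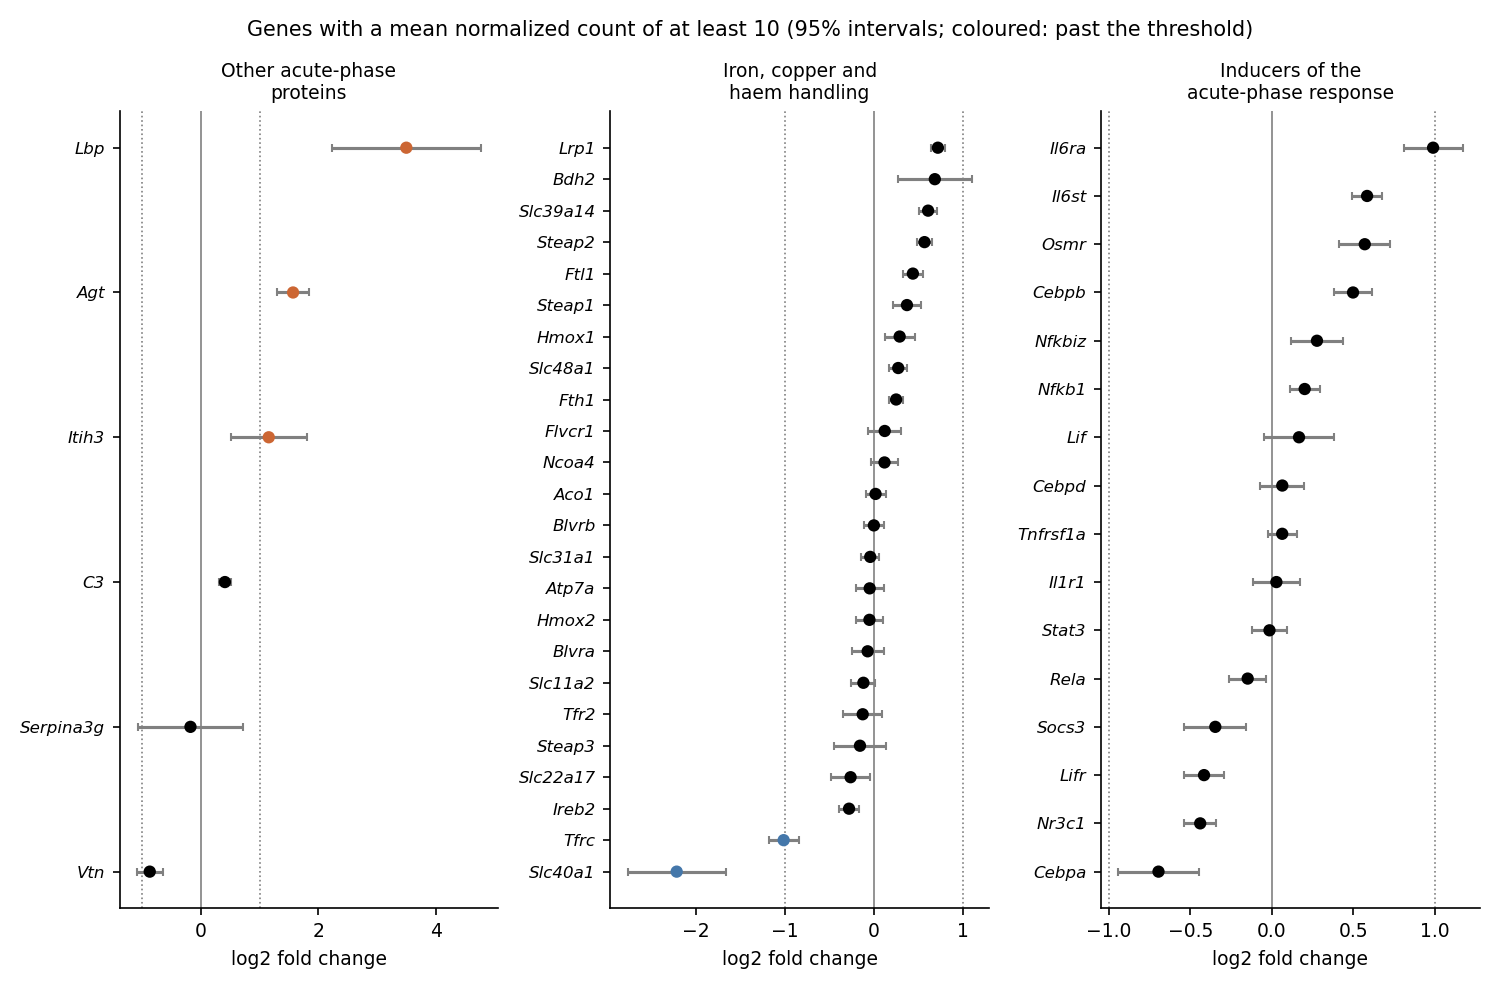
Log2 fold change (horizontal axes, corticosterone against vehicle, each panel with its own scale) with 95% intervals for genes of 3 lists with a mean normalized count of at least 10. Coloured points passed the threshold, higher in orange and lower in blue. They are *Lbp*, *Agt* and *Itih3* among other acute-phase proteins, *Tfrc* and *Slc40a1* among genes of iron, copper and haem handling, and none among inducers.

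Of 32 genes that handle iron, copper and haem, 30 had values, and 2 fell and 0 rose past the threshold by limma. The same was found by edgeR and DESeq2, which gave an adjusted p for 24 and 25 of the 30. Over all genes 1.40% fell and 1.38% rose past it by limma. The following counts are of the 30. At an unadjusted p under 0.05, a cutoff with no share of all genes counted, 9 were higher and 4 lower. The median log2 fold change was 0.01. *Slc40a1*, which encodes ferroportin, the iron exporter whose work ceruloplasmin aids, had 98.9, 192 and 101 with vehicle and 27.8, 33.1 and 20.5 with corticosterone. It fell by 2.22 on the log2 scale (SE 0.26, limma adjusted p = 9.31e-06), with no overlap of the groups. *Tfrc*, the transferrin receptor, had 718, 707 and 746 with vehicle and 375, 385 and 316 with corticosterone, a log2 fold change of -1.02 (SE 0.08, limma adjusted p = 7.68e-08). *Tfrc* was just past the fold threshold, and fell short of it without vehicle replicate 3 and without corticosterone replicate 3, at -0.99 and -0.93.

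Whatever the size, 12 of the 30 had an adjusted p under 0.05, 9 of them higher and 3 lower, against 16.7% of all genes in either direction. A mean normalized count of at least 10 was reached by 24 of the 30, and by 13880 of all 24016 genes, so the levels compared are unlike. The following were picked after their values were seen. The ferritin genes *Fth1* and *Ftl1* had log2 fold changes of 0.25 and 0.44 (limma adjusted p = 0.000105 and 1.10e-05). *Lrp1*, a receptor that takes up the complex of haem and hemopexin, had 0.72, and *Hmox1*, the haem oxygenase, had 0.29 (limma adjusted p = 9.12e-10 and 0.0179). The adjusted p of *Hmox1* was not under 0.05 with 4 of the 6 libraries left out in turn, at up to 0.23. The count of 9 higher became 7 to 8 with a library left out and 4 without a trend in the prior variance, where *Hmox1*, *Fth1*, *Ftl1* and *Steap1* had adjusted p of 0.31, 0.076, 0.059 and 0.11. The metalloreductase genes *Steap1* and *Steap2*, of the same family as *Steap4*, had 0.37 and 0.57 (limma adjusted p = 0.0014 and 4.77e-08), and *Steap3* had -0.16 (0.54). *Slc39a14*, a metal transporter, had 0.61 (limma adjusted p = 9.08e-08), and *Slc22a17*, proposed as a receptor of lipocalin-2, had -0.26 (0.10).

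Of 21 inducers of the acute-phase response, 19 had values, and 0 were past the threshold in either direction by limma. Over all genes 1.38% were higher and 1.40% lower past it, so 0 of 19 is close to that share. Of the 19, 10 had an adjusted p under 0.05, 6 higher and 4 lower, against 16.7% of all genes in either direction. A mean normalized count of at least 10 was reached by 16 of them and by 13880 of all 24016 genes. An unadjusted p under 0.05, with no share of all genes counted, was found for 6 higher and 6 lower. With edgeR and with DESeq2 also 0 were past the threshold, of the 16 and 18 genes given an adjusted p. The most abundant were *Tnfrsf1a*, a receptor of tumour necrosis factor, *Il6st*, the shared receptor subunit of the interleukin-6 family, the factor *Cebpb*, and *Stat3*. Their log2 fold changes were 0.06, 0.58, 0.50 and -0.01, with adjusted p of 0.39, 4.33e-08, 5.14e-06 and 0.92 in limma. *Cebpa*, another C/EBP factor of the list, had 326 ± 60.9 and 199 ± 12.1 (SD, n = 3 each), and its log2 fold change was -0.69 (limma adjusted p = 0.000357). It was named after its values were seen, and its adjusted p was 0.079 without a trend in the prior variance, where 4 of the inducers were higher and 1 was lower at an adjusted p under 0.05.

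Chosen after its values were seen, *Il6ra*, the other subunit of the interleukin-6 receptor, had 210 ± 10.1 and 417 ± 26.0 (SD, n = 3 each). Its log2 fold change of 0.99 (limma adjusted p = 2.76e-07) lay just inside the fold threshold and passed it without vehicle replicate 2, vehicle replicate 3 or corticosterone replicate 2, at up to 1.03. The glucocorticoid receptor gene *Nr3c1*, also chosen so, had 2912 ± 12.2 and 2150 ± 103 (SD, n = 3 each), and the log2 fold change was -0.44 (limma adjusted p = 2.71e-06). *Il6* itself was near the floor, with 9.96 ± 6.28 and 2.31 ± 1.14 (SD, n = 3 each, limma adjusted p = 0.11), and *Socs3*, a target of STAT3, had -0.35 (limma adjusted p = 0.0119), with an adjusted p of up to 0.11 and over 0.05 with 5 of the 6 libraries left out in turn. Both were named after their values were seen.

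Markers of other cell types that make acute-phase proteins were read beside these results. Of 10 hepatocyte markers 4 had values, and their summed normalized count was 17.6 to 25.5 with vehicle and 55.7 to 87.3 with corticosterone, most of it *Apoa1*. *Apoa2*, *Apob* and *Cps1* each had means of at most 5.54 in either group. Of 10 neutrophil markers 4 had values, with sums of 0.811 to 10.0 and 5.35 to 16.6, and 0 passed the threshold by limma, while 1 was higher at an unadjusted p under 0.05. Of 10 macrophage markers 4 had values, with sums of 264 to 303 and 215 to 239, and *Mrc1* was lower past the threshold by limma, a call it lost with 5 of the 6 libraries left out, at an adjusted p of up to 0.20. The low-count filter of edgeR left *Mrc1* out, DESeq2 gave it no adjusted p, and edgeR without that filter called it lower (adjusted p = 0.0407).

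Of 10 adipocyte markers 3 had values, with sums of 81.0 to 110 and 200.2 to 205. The fatty acid binding protein gene *Fabp4* rose from 14.8 ± 6.71 to 121 ± 11.5 (SD, n = 3 each), by 3.14 on the log2 scale (limma adjusted p = 1.33e-06). *Lipe* had 80.1 ± 7.64 and 80.8 ± 14.6 (SD, n = 3 each), and *Plin1* had no vehicle reads and a mean of 0.853 with corticosterone. Of 8 endothelial markers 6 had values, with 0 past the threshold by limma and 0 at an unadjusted p under 0.05. Hepatocyte and adipocyte sums moved in the same direction as the acute-phase genes that rose, mainly through *Apoa1* and *Fabp4*. The other hepatocyte markers with values were low, *Apoa2* with a lower mean with corticosterone and *Apob* and *Cps1* with higher ones. *Lipe* was nearly level. The neutrophil sums also reached higher with corticosterone, but the treatments overlapped. The part of other cell types in the result was not tested.

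The genes whose pattern over the 6 libraries was most like that of *Hp* were sought among the 13872 genes outside the 9 members with a mean normalized count of at least 10. The measure was the Euclidean distance of log2(normalized count + 1) after each gene's vehicle mean was subtracted, so that it rewards a like size of change. The nearest were *Gm37022*, *Hgd*, *Nppc*, *Cldn2* and *Wdr95*, at distances of 0.945, 0.964, 1.12, 1.26 and 1.31. *Hgd*, which encodes homogentisate 1,2-dioxygenase of tyrosine breakdown, had 13.6 ± 4.57 and 227 ± 11.2 (SD, n = 3 each). *Cldn2*, which encodes claudin-2 of tight junctions, had 14.1 ± 8.62 and 234 ± 33.0 (SD, n = 3 each). *Nppc*, the gene of C-type natriuretic peptide, had 1.22 ± 0.738 and 30.7 ± 2.35 (SD, n = 3 each). *Gm37022* had 2.77 ± 1.62 and 64.6 ± 17.0, and *Wdr95* had 1.66 ± 0.641 and 28.2 ± 1.74 (SD, n = 3 each). None of these 5 genes is on the lists of related genes.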

How the data were processed

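RNA was sequenced commercially (Illumina, NEBNext Ultra kit) from 3 vehicle and 3 corticosterone cultures, called biological replicates by the study. If they share a source, the p-values measure only the spread between these cultures. The authors deposited 1 non-negative signal per gene and library, named FPKM. All values (100%, within 0.01 of a whole number) are whole multiples of 1 step per library, so the deposited values are counts divided by a size factor of 0.782 to 1.30, and reads were recovered from them. The labels name build mm10. The aligner, counter, annotation and strand setting are not given in the sources used here. The authors tested with DESeq2.

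Here limma 3.58.1 in R 4.3.3 (lmFit, eBayes with a variance trend) was run across all genes on log2(value + 0.1) for means of at least 0.1, with Benjamini-Hochberg adjustment. The filter removed 0 genes. The design had assumed normalized values and was kept. Single genes were also tested with a two-sided exact permutation test. Alternatives were edgeR 4.0.16 (quasi-likelihood) and DESeq2 1.42.0 on recovered reads, other pseudocounts (1 and 0.01), filters and scalings, no variance trend, the replicate block and leaving out each library. Scripts were tested on simulated data. No 2 libraries were duplicates (chi-square of counts per degree of freedom at least 3.41).

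Coordinates, transcripts and coding sequences came from GENCODE M21 (GRCm38), which matched 24008 of 24016 identifiers, and promoters from RefSeq GRCm38.p6. Members, lists, motifs and tests were chosen with earlier results of these data known. The genes named are all members, list genes past the threshold or, where none was, the up to 4 most abundant, the nearest gene with values on each side of each member, and the 5 genes most like *Hp*. Genes outside this rule are marked, save the cell type markers *Col1a1*, *Apoa2*, *Apob*, *Cps1*, *Lipe* and *Plin1*, and *Hps3*, which overlaps *Cp*. List genes without a value are not analysed here. Python 3.11.15, pandas 2.3.3, SciPy 1.17.1 and matplotlib 3.10.9 were used.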

Additional observations from a re-analysis of the deposited data

How the results depend on the processing

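Members past the threshold were 6 higher and 0 lower in each fit, save 5 higher with a mean of at least 10, where *Serpina3n* was not tested, and 5 without a variance trend, where *Orm3* was lost. Over all genes, 253 to 354 were higher and 204 to 369 lower. With a library left out the lower count was 204 to 321, at 220 and 204 without the second and the third vehicle library. With the replicate number as a block, 297 were higher and 294 lower, with 6 and 0 members, and no member's call changed. Same-numbered libraries did not deviate together (correlations of -0.02, 0.01 and 0.02 over 13880 genes, and 2 of 6 libraries correlated best with their own number), so the numbers were not taken to pair them. The summed orosomucoid log2 fold change was 4.89 to 5.35 with a library left out and 5.05 to 5.20 otherwise. In alternatives added after the data were seen, the list counts changed as follows. Other acute-phase genes had 2 higher without a variance trend and 2 to 4 higher and 0 to 1 lower with a library left out. Genes of iron, copper and haem had 1 to 2 lower with a library left out. Inducers had 0 to 1 higher with a library left out and 1 lower, *Il6*, with edgeR and no filter. Some small changes turned sign, and the cause was not tested. *Tnfrsf1a* was -0.039 with quantile normalization. With a library left out, *Serpina3g* ranged from -0.56 to 0.17, *Stat3* from -0.049 to 0.042, *C8g* from -0.18 to 0.25, *Apom* from -0.56 to 2.37, *Gsc* from -0.090 to 0.27 and *Hltf* from -0.081 to 0.036. None of these was past the threshold. The vehicle values of *Orm1*, *Orm2*, *Orm3*, *Lcn2* and *Serpina3n*, at 0 to 9 reads, limit how well the size of their changes is known.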
